A study of Saccharomyces cerevisiae with 8 samples.

Results

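The genes described here encode the subunits of translation initiation factor eIF3 in budding yeast, Saccharomyces cerevisiae. They are RPG1, PRT1, NIP1, TIF34, TIF35 and HCR1, and they were taken by gene symbol, as 6 of the 6034 coding targets in the abundance tables. Transcript levels came from poly-A RNA sequencing of strain W303a in 4 groups with 2 libraries each. Cultures in YPD medium (2% dextrose) were kept at 30 °C until their OD600 was between 0.2 and 0.4. The groups were cells held at 30 °C, cells held at 39 °C for 5 min (heat shock), and the same temperatures for cells treated with 5ph-IAA. The 5ph-IAA treatment was intended to deplete Ifh1, a coactivator of ribosomal protein genes, and consisted of 1 µM β-estradiol with 5 µM 5ph-IAA, an auxin analogue used to degrade degron-tagged proteins, for 30 min. The design text names anchor away, a method that removes a protein from the nucleus, in place of degradation. The labels leave unsaid what the cells without 5ph-IAA received and whether they carried the same tagged strain, so effects of the tag, of β-estradiol and of 5ph-IAA itself cannot be told apart from those of Ifh1 loss.

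eIF3 binds the small (40S) ribosomal subunit and holds together the factors that load the initiator tRNA and the mRNA and then scan for the start codon. In yeast its stable core consists of Rpg1 (also called Tif32, the a subunit), Nip1 (c), Prt1 (b), Tif34 (i) and Tif35 (g), and Hcr1 (j) is attached more loosely. Rpg1 and Nip1 contact the 40S subunit and other initiation factors, Prt1 is the scaffold that joins them to the small subunits Tif34 and Tif35, and Hcr1 also acts with the ATPase Rli1 when ribosomes terminate and are recycled. Genes for ribosomes and translation factors are among those that yeast represses during stress.

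All 6 genes lie on the minus strand of the R64 reference assembly, and each has 1 coding exon with no overlapping annotated gene. RPG1 (YBR079C) is at chrII:395383-398277, PRT1 (YOR361C) at chrXV:1015361-1017652 and NIP1 (YMR309C) at chrXIII:892988-895426. TIF34 (YMR146C) is at chrXIII:557481-558524, TIF35 (YDR429C) at chrIV:1324477-1325301 and HCR1 (YLR192C) at chrXII:538792-539589. Rpg1, with 964 residues, Nip1, with 812, and Prt1, with 763, are the large subunits. Tif34 has 347 residues, Tif35 has 274 and Hcr1 has 265. The 6 target lengths in the tables equal the R64 coding lengths, and all 6 genes had only whole estimated counts, so no reads were shared out between them and similar genes. Their counts ran from 738 to 10321 per library.

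The promoter sequences are shown as description only, and their link to the unequal changes of the members was not tested. The sequences are RefSeq's R64 sequences of strain S288C, not of W303a. R64 annotates genes from their start codon, so a window here held 250 bases before and 50 bases from the start codon on, with the A of the start codon as position 1. Windows were searched on both strands for PAC (GCGATGAG) and the core of RRPE (AAAATTTT), elements common before ribosome biogenesis genes, for the stress element STRE (AGGGG), bound by Msn2 and Msn4, and for an inverted repeat of the unit bound by heat shock factor Hsf1 (TTCNNGAA). The RRPE core was found in 4 of 6 members, and in 9.03% of 6001 promoter windows of coding genes. The stretches of 40 bases around it are given 5′ to 3′ on the gene's strand, with the RRPE core in capitals.
RPG1, chrII:398350-398389: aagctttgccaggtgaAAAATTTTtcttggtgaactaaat
NIP1, chrXIII:895564-895603: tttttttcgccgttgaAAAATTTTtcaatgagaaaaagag
TIF35, chrIV:1325402-1325441: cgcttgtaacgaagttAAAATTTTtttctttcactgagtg
PRT1, chrXV:1017625-1017664: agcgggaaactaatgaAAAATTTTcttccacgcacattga

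The matches began 96 bases before the start codon in RPG1, at position -96, at -161 in NIP1 and at -124 in TIF35. In PRT1 the match was inside the coding sequence, from position 5 to 12. TIF35 also held a PAC match on the opposite strand at -145 to -138 and an STRE at -243 to -239, and the annotated neighbour CYM1 ends 199 bases before TIF35, so that STRE lay inside CYM1. PAC was present in 3.93% and STRE in 21.6% of all windows. TIF34 had none of these letters in its window, and HCR1 had only the Hsf1 repeat, at -96 to -89, which 12.9% of all windows held. The distal 180 bases of the windows of the member that changed most on heat shock (NIP1) and the one that changed least (HCR1) are printed below, with the RRPE core of NIP1 and the Hsf1 repeat of HCR1 in capitals.
NIP1, chrXIII:895497-895676, minus strand: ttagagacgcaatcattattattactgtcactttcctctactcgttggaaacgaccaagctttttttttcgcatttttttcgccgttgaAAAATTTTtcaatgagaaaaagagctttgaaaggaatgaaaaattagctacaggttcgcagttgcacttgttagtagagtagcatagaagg
HCR1, chrXII:539660-539839, minus strand: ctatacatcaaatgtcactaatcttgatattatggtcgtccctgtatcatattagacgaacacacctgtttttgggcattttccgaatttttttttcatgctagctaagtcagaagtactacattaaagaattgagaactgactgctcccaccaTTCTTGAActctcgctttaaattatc

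Library totals were 7717767 to 10118860 estimated counts, except 21025464 and 19974567 in the 39 °C group without 5ph-IAA, so that heat shock without 5ph-IAA coincides with deeper libraries, whose part in the results was not tested. The heat shock genes SSA4, HSP42 and BTN2 had means of 15.6 to 81.2 TPM (a length-corrected share of all transcripts) in the 30 °C groups and of 6388 to 7666 TPM in the 39 °C groups. Of the a-cell markers, STE2 had group means of 75.0 to 490 TPM, BAR1 of 17.2 to 120, STE6 of 10.5 to 81.1 and ASG7 of 8.16 to 37.6. The very short MFA1 and MFA2 were listed at 0. Of the alpha-cell markers, STE3 and MF(ALPHA)1 were at most 4.01 TPM in the group means and MF(ALPHA)2 and SAG1 at most 23.7 TPM. IFH1 mRNA was 23.3 ± 1.05 TPM at 30 °C and 25.3 ± 1.87 with 5ph-IAA (SD, n = 2). With TMM scaling the log2 fold change of IFH1 at 30 °C was -0.53 ± 0.06 (adjusted p = 1.41e-05, edgeR quasi-likelihood test), whereas its TPM overlapped between these groups. The depletion acts on the protein, which these data do not measure.

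At 30 °C without 5ph-IAA, the mRNAs of the small core subunits stood highest per length and that of NIP1 lowest. TIF34 had 656.5 and 640.9 TPM and TIF35 had 554.5 and 533.3 TPM in the 2 libraries. HCR1 followed with 307.3 and 298.3 TPM. RPG1 had 259.8 and 248.9 TPM, PRT1 had 222.1 and 213.2 TPM, and NIP1 had 162.0 and 161.3 TPM. No library of one gene overlapped those of the next in this order. The deposited TPM divides counts by an effective length that is shorter than the target length, and the place of HCR1 depends on it. HCR1 had 2637 and 2666 counts over 798 bases, and RPG1 10035 and 10012 over 2895 bases. Per base of target length, RPG1 thus stood above HCR1. The highest member was 4.01 ± 0.0569 times the lowest (ratio of TPM, SD, n = 2). Together the 6 mRNAs made up 0.213% ± 0.00469 of TPM.

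**Figure D1:**
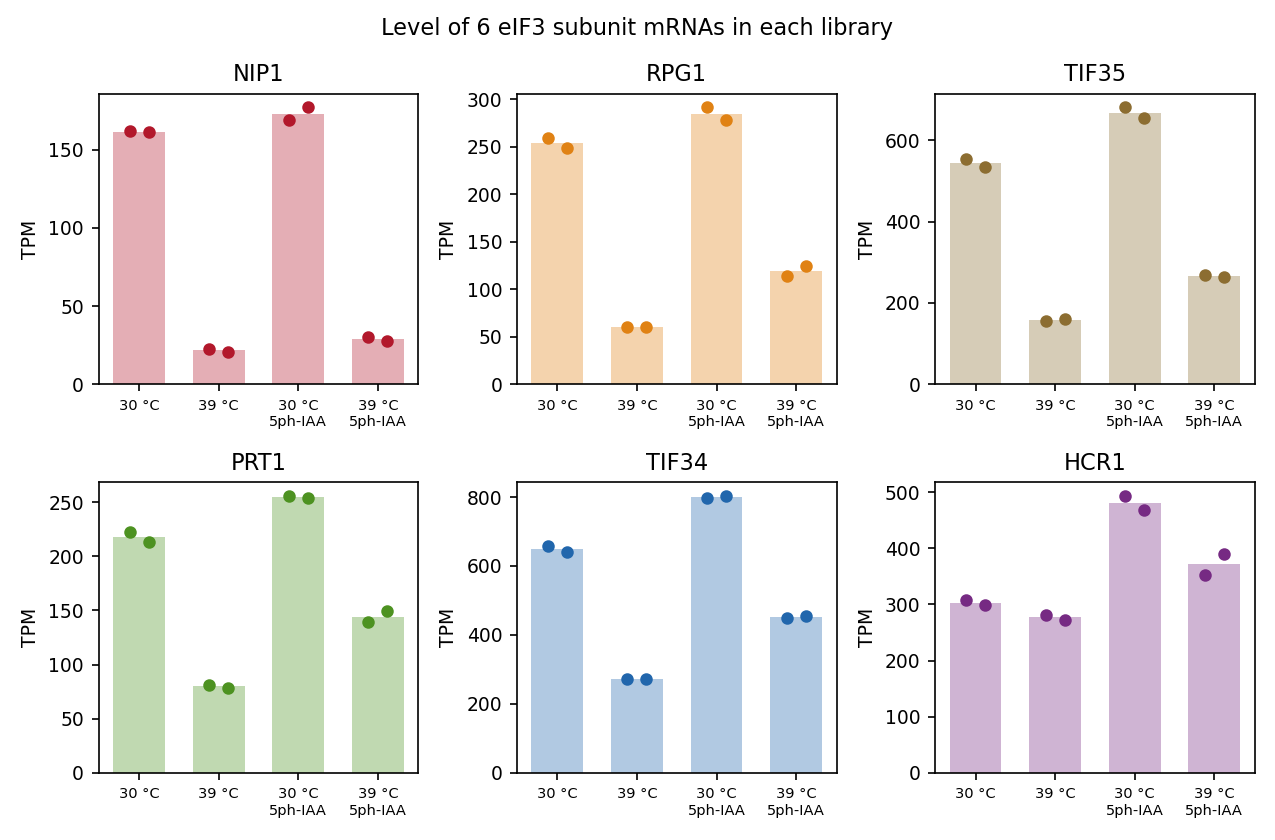
Level of each eIF3 subunit mRNA in TPM on a linear axis from 0, with 1 panel per gene, bars for the mean of a group and points for its 2 libraries. In the NIP1 panel the 39 °C bars stand at 21.8 and 29.0 TPM against 162 and 173 at 30 °C, whereas the HCR1 bars run from 277 to 481 TPM.

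On heat shock in cells without 5ph-IAA, all 6 eIF3 mRNAs were called lower, and to very different extents. Of all tested genes 39.7% were called lower in this comparison, 42.5% higher and 82.2% in either direction. NIP1 changed 8.12-fold, RPG1 4.63-fold and HCR1 1.20-fold. NIP1, the c subunit, had 22.8 and 20.8 TPM at 39 °C, so that its mean went from 162 ± 0.472 to 21.8 ± 1.45 TPM (SD, n = 2) and its place among all targets from the 85.6th to 85.9th percentile down to the 33.8th to 35.4th. Its log2 fold change was -3.02 ± 0.06 (SE, adjusted p = 1.35e-14, quasi-likelihood test of edgeR, adjusted by the Benjamini-Hochberg method over 5734 tested genes), and 3.12% of those genes had a lower one. The 39 °C libraries of NIP1 lay far below all 30 °C libraries, with no overlap.

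RPG1, the a subunit, had 60.0 TPM in both 39 °C libraries, below every other library. It changed on the log2 scale by -2.21 ± 0.05 (adjusted p = 2.17e-14, edgeR quasi-likelihood test). PRT1, the scaffold, had 81.6 and 78.3 TPM, a log2 fold change of -1.58 ± 0.04 (adjusted p = 3.84e-13). These 2 genes therefore changed places, with RPG1 above PRT1 at 30 °C and below it at 39 °C, in both libraries of each group. TIF35, the RNA-binding g subunit, had 155.2 and 161.3 TPM at 39 °C and changed by -1.91 ± 0.05 on the log2 scale. TIF34, the propeller-shaped i subunit that binds Prt1, had 271.0 and 272.8 TPM and changed by -1.38 ± 0.04. For both, the adjusted p was at most 1.24e-12 in edgeR's quasi-likelihood test and the groups did not overlap.

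HCR1 stood apart from the core. It had 281.5 and 272.7 TPM at 39 °C, just under the 307.3 and 298.3 TPM at 30 °C. The fitted log2 fold change of HCR1 was -0.26 ± 0.05 (adjusted p = 0.000273, edgeR quasi-likelihood test), and on log2(TPM + 1) values limma gave -0.13 with an adjusted p of 0.0631, above the threshold of 0.05. With this, HCR1 and TIF34 overlapped in TPM as the highest members at 39 °C, where HCR1 had ranked below TIF34 and TIF35 at 30 °C. The 6 mRNAs together went to 0.0869% ± 0.000442 of TPM. The median log2 fold change was -1.74 for the 6 members and 0.04 for all tested genes. Since values are shares of a library, a change per cell cannot be told apart from a change in the rest of the RNA.

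**Figure D2:**
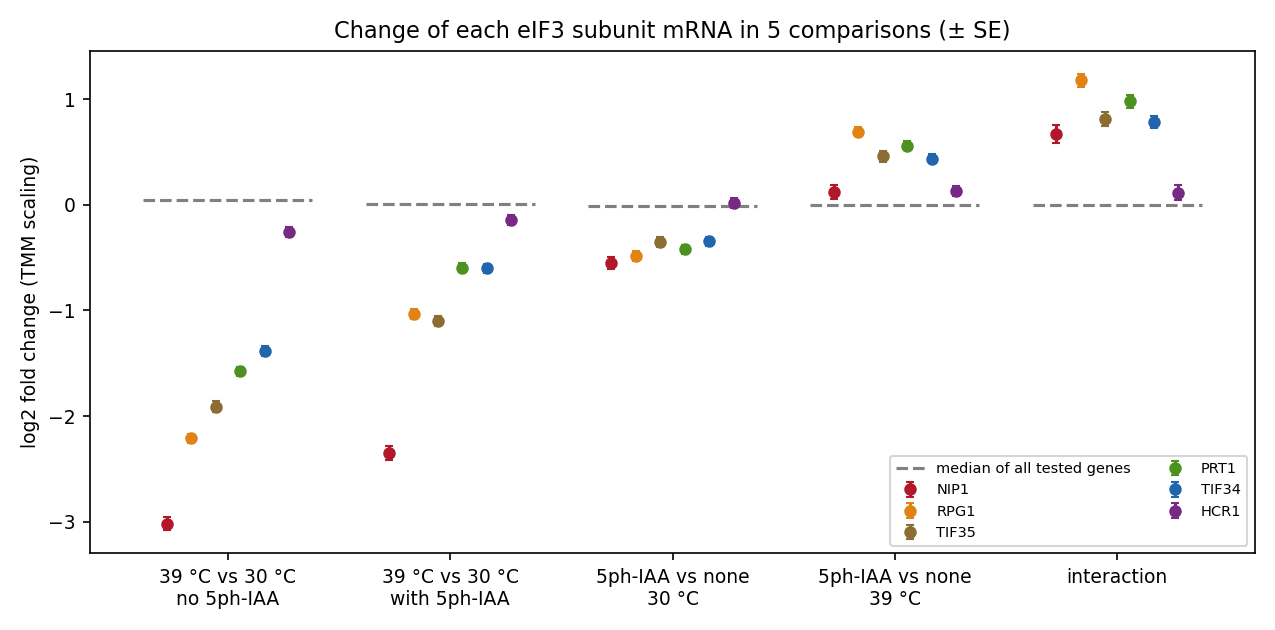
Log2 fold change of each eIF3 subunit mRNA in 5 comparisons (TMM scaling, points with SE bars), with a dashed line at the median of all tested genes. On heat shock without 5ph-IAA the members spread from -3.02 for NIP1 to -0.26 for HCR1. For 5ph-IAA at 30 °C the core members sit between -0.55 and -0.35, below the dashed line. On log2(TPM + 1), which is not drawn, the medians of the members and of all tested genes were both above 0, at 0.26 and 0.61.

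The balance among the 6 mRNAs does not depend on how libraries are scaled, because each was set against the other 5 in the same library. On heat shock without 5ph-IAA, HCR1 changed from -0.06 in both 30 °C libraries to 1.71 and 1.69 in the 39 °C libraries (log2 of its TPM over the geometric mean of the other 5). NIP1 changed from -1.17 and -1.13 to -2.64 and -2.77. When each library was scaled to the counts of the other 5 members in edgeR, HCR1 rose by 1.76 ± 0.05 on the log2 scale relative to them (3.39-fold, adjusted p = 5.43e-13). TIF34 also rose relative to the others, by 0.41 ± 0.04 (adjusted p = 3.33e-07, edgeR quasi-likelihood test), and PRT1 by 0.18 ± 0.04 (adjusted p = 0.00103). NIP1, at -1.55 ± 0.07, RPG1, at -0.58 ± 0.05, and TIF35, at -0.22 ± 0.05, fell relative to the others, with adjusted p-values of 7.03e-12, 2.28e-08 and 0.00106. All 15 pairs of members changed unequally at an adjusted p under 0.05, whichever of the pair served as the scale. Pairs of other genes were not examined, here or for the pair counts below, so no share over all genes stands beside them. The 15 pairs are made from 6 genes and are not independent. With TMM scaling, 82.2% of all tested genes were called in this comparison. For single ratios of TPM, the two-sided exact permutation test between groups of 2 libraries cannot go below p = 0.333, which was the value for all 6 members.

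NIP1 made up 7.60% ± 0.145 of the eIF3 TPM at 30 °C and 2.51% ± 0.154 at 39 °C (SD, n = 2). HCR1 went from 14.2% ± 0.0135 to 31.9% ± 0.548, whereas TIF34 held 30.5% ± 0.151 and 31.3% ± 0.302. The highest member was 12.7 ± 0.563 times the lowest at 39 °C, against the 4.01 ± 0.0569 times at 30 °C.

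**Figure D3:**
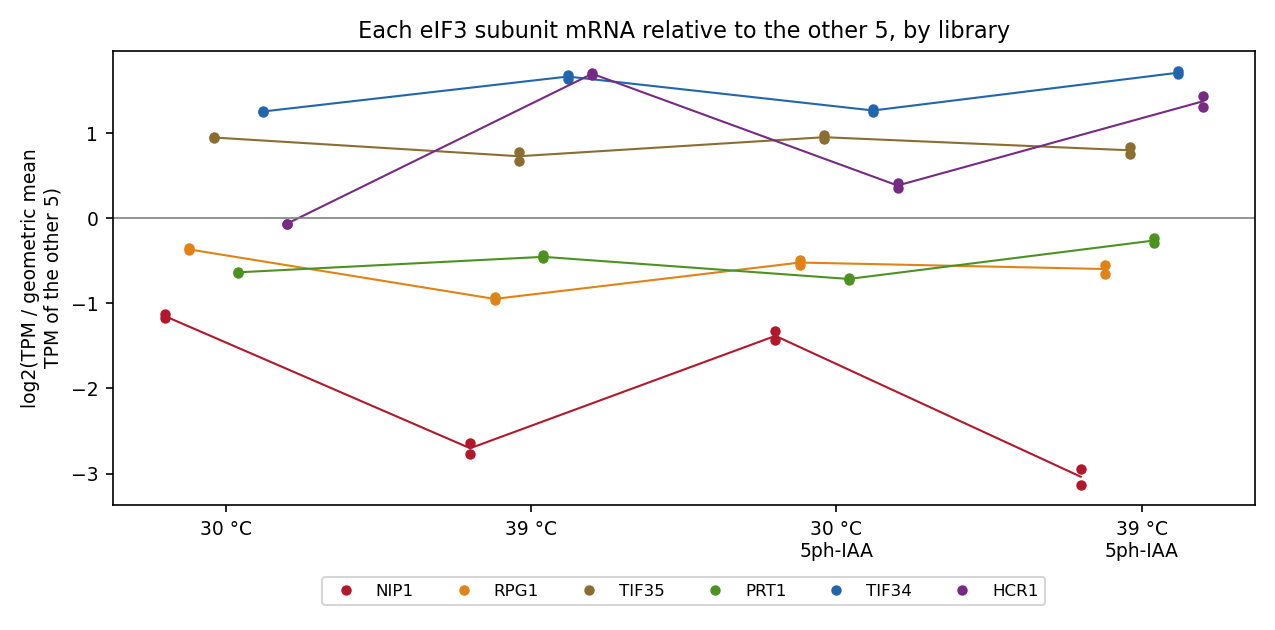
Log2 ratio of each member's TPM to the geometric mean TPM of the other 5 in the same library, by group, with a point per library and lines joining group means. HCR1 goes from -0.06 at 30 °C to 1.70 at 39 °C and from 0.39 to 1.38 with 5ph-IAA, and NIP1 goes from -1.15 to -2.70 and from -1.38 to -3.04.

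In cells at 30 °C, the direction in which the eIF3 core differed with 5ph-IAA depended on the scaling of the libraries. This comparison shares the 30 °C libraries without 5ph-IAA with the one before. NIP1 had 169.3 and 177.2 TPM with 5ph-IAA, above the 162.0 and 161.3 TPM without it. RPG1 had 291.6 and 278.5 TPM, and PRT1 had 255.9 and 253.9 TPM. TIF34 had 797.8 and 803.5 TPM, and TIF35 had 681.0 and 654.7 TPM. In TPM, every library with 5ph-IAA thus lay above both libraries without it for these 5 genes. HCR1 had 493.7 and 468.4 TPM against 307.3 and 298.3 TPM without 5ph-IAA, the largest difference in TPM ratio among the 6. The 40S ribosomal protein genes made up 17.7% ± 0.336 of TPM without 5ph-IAA and 7.49% ± 0.00809 with it, and since TPM sums to the same total in every library, a fall in these abundant mRNAs and a rise in the others cannot be told apart.

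With TMM scaling, 5 of 6 members were called lower, against 28.1% of all tested genes, and none higher, against 23.6% (51.7% in either direction). NIP1 changed by -0.55 ± 0.06 (adjusted p = 2.26e-06), RPG1 by -0.49 ± 0.04, PRT1 by -0.42 ± 0.04, TIF35 by -0.35 ± 0.05 and TIF34 by -0.35 ± 0.04 on the log2 scale, with adjusted p at most 2.9e-05 in edgeR's quasi-likelihood test. HCR1 changed by 0.02 ± 0.05 (adjusted p = 0.787). The median of all tested genes was -0.02 with TMM, 0.38 with library totals and 0.61 on log2(TPM + 1), and the members' median was -0.39, 0.01 and 0.26. The calls over all genes were 1614 lower and 1351 higher with TMM, 503 and 3962 with library totals, and 276 and 4865 on log2(TPM + 1). The member median therefore lay 0.37 below that of all genes with TMM and with library totals (-0.37 in both) and at -0.35 on log2(TPM + 1).

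**Figure D4:**
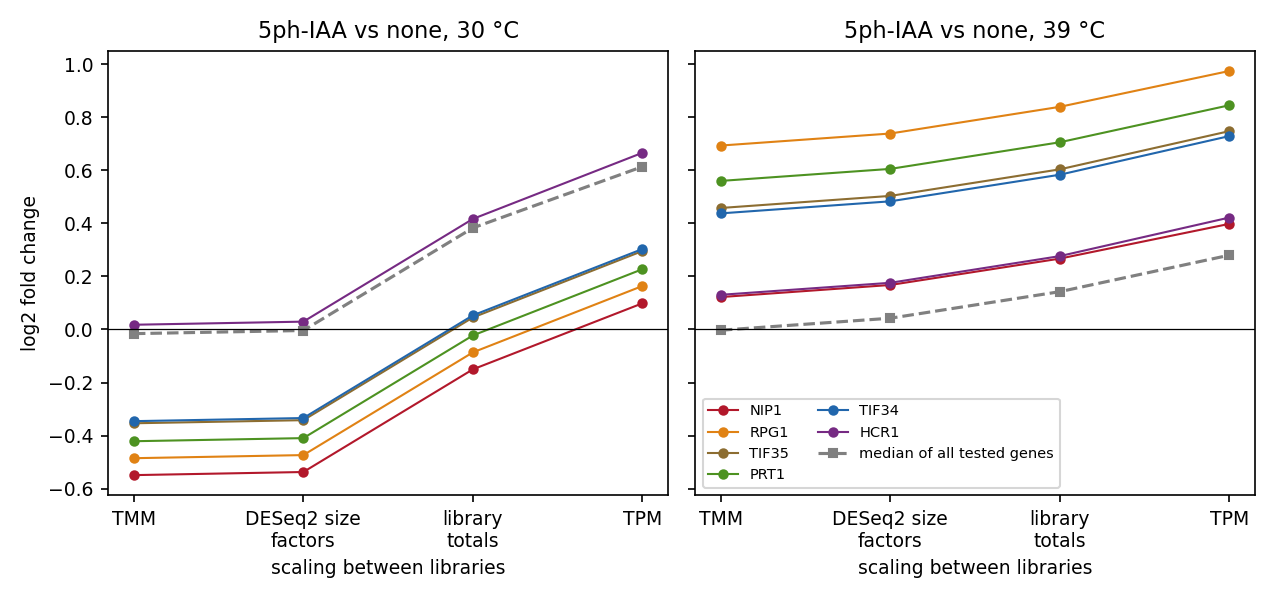
Log2 fold change of each member and of the median tested gene (dashed, squares) under 4 scalings between libraries, for 5ph-IAA against none at 30 °C (left) and 39 °C (right). At 30 °C the 5 core members lie below the dashed line under every scaling, while they cross 0 between TMM, with a member median of -0.39, and log2(TPM + 1), with 0.26. At 39 °C all 6 members lie above the dashed line.

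Within the complex, 5ph-IAA at 30 °C shifted HCR1 most. HCR1 went from -0.06 to 0.42 and 0.36 relative to the other 5 (log2 of TPM ratio) and rose relative to them by 0.45 ± 0.05 in edgeR (adjusted p = 5.57e-06, quasi-likelihood test). NIP1, at -0.23 ± 0.06 (adjusted p = 0.00482), and RPG1, at -0.15 ± 0.04 (adjusted p = 0.00753), fell relative to the others. Both calls rested on single libraries, since NIP1 was at -0.18 (adjusted p = 0.0618) without the first 30 °C library with 5ph-IAA and RPG1 at -0.13 (adjusted p = 0.0638) without the other. For PRT1, TIF34 and TIF35 the relative change was between -0.08 and 0.01 and did not pass the test. Of the 15 pairs, 6 changed unequally in edgeR at an adjusted p under 0.05. Against the ribosome whose small subunit eIF3 binds, the sum of the 6 mRNAs was 1.21 ± 0.0495 TPM per 100 TPM of 40S ribosomal protein mRNA at 30 °C and 3.56 ± 0.0464 with 5ph-IAA (SD, n = 2). That ratio needs no scaling between libraries, and the groups did not overlap, though a two-sided exact permutation test between groups of 2 cannot go below p = 0.333.

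After heat shock in cells with 5ph-IAA, all 6 mRNAs were called lower, as were 38.3% of all tested genes, whereas 38% of those were called higher and 76.2% changed either way. The 30 °C libraries with 5ph-IAA also served in the comparison before. NIP1 had 30.2 and 27.9 TPM at 39 °C with 5ph-IAA, far below its 169.3 and 177.2 TPM at 30 °C. It changed on the log2 scale by -2.35 ± 0.06 (adjusted p = 5.73e-13, edgeR quasi-likelihood test), and 1.92% of tested genes had a lower one. RPG1 had 113.8 and 124.2 TPM at 39 °C and TIF35 had 269.6 and 263.2 TPM, with log2 fold changes of -1.03 ± 0.05 and -1.10 ± 0.05. PRT1, with 139.6 and 149.2 TPM, and TIF34, with 449.2 and 453.4 TPM, changed by -0.59 ± 0.04 and -0.60 ± 0.04. None of these groups overlapped, and NIP1 again stood apart from the other core genes. HCR1 had 353.5 and 390.5 TPM and changed by -0.15 ± 0.05 (adjusted p = 0.0172, edgeR quasi-likelihood test), a call that was lost without the first library at 30 °C with 5ph-IAA (-0.13, adjusted p = 0.086) or without the first at 39 °C with 5ph-IAA (-0.09, adjusted p = 0.187). With library totals HCR1 was at -0.47 (adjusted p = 2.27e-06) and on log2(TPM + 1) at -0.37 (adjusted p = 0.000345, limma). PRT1 and TIF34 were at -0.92 and -0.93 with library totals.

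The calls over all genes in that comparison were 2194 lower and 2178 higher with TMM, 3156 and 1409 with library totals and 2835 and 1577 on log2(TPM + 1). The members' median was -0.82, lower by 0.82 than that of all genes (-0.82 with TMM and with library totals, -0.83 on log2(TPM + 1)). Relative to the other 5 members, NIP1 changed by -1.65 ± 0.07 and HCR1 by 0.99 ± 0.05 in edgeR (adjusted p = 1.7e-11 and 4.91e-10). PRT1 and TIF34 rose relative to the others, by 0.45 ± 0.04 and 0.44 ± 0.04. TIF35 changed by -0.15 ± 0.05 (adjusted p = 0.0142), a call lost without the first library at 30 °C with 5ph-IAA (-0.13, adjusted p = 0.0781) or the other at 39 °C with it (-0.11, adjusted p = 0.115). RPG1, at -0.08 ± 0.05, did not pass (adjusted p = 0.13), but did without the latter library (-0.13, adjusted p = 0.0347). Of 15 pairs, 13 changed unequally in edgeR, and TIF35 with RPG1 and TIF34 with PRT1 were the exceptions. The share of NIP1 in the eIF3 TPM went from 6.51% ± 0.302 to 2.10% ± 0.174, and the highest member was 15.6 ± 0.976 times the lowest at 39 °C with 5ph-IAA.

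At 39 °C, eIF3 mRNAs stood higher with 5ph-IAA than without. RPG1 had 113.8 and 124.2 TPM against 60.0 in both libraries without it, and its log2 fold change was 0.69 ± 0.05 (adjusted p = 4.52e-08, edgeR quasi-likelihood test). PRT1 rose by 0.56 ± 0.04, TIF35 by 0.46 ± 0.05 and TIF34 by 0.44 ± 0.04, with adjusted p-values of at most 5.39e-06, and the groups did not overlap in TPM. NIP1 changed by 0.12 ± 0.07 (adjusted p = 0.154), and passed with library totals (0.27, adjusted p = 0.00311) and on log2(TPM + 1) (0.40, adjusted p = 0.00126). HCR1 changed by 0.13 ± 0.05 (adjusted p = 0.0459). That call was lost when either 39 °C library without 5ph-IAA was left out (adjusted p = 0.131 and 0.141), without the first 30 °C library with 5ph-IAA (0.0514), without the other 39 °C library with it (0.336), or when only the 39 °C groups were fitted (0.0545). It held with library totals (0.28, adjusted p = 0.000636) and on log2(TPM + 1) (0.42, adjusted p = 0.000351, limma), and under both scalings all 6 members were called higher. On log2(TPM + 1) PRT1 was at 0.85, TIF35 at 0.75 and TIF34 at 0.73. The heat shock genes differed between the same libraries: SSA4 changed by -0.46 ± 0.04, HSP42 by -0.29 ± 0.04 and BTN2 by -0.49 ± 0.05, 3 of 3 called lower in edgeR, with a median of -0.46 that was -0.32 with library totals and -0.17 on log2(TPM + 1). Their part in the eIF3 differences was not tested.

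So 5 of 6 members were called higher in cells at 39 °C with 5ph-IAA, against 22.5% of all tested genes called higher, 22% lower and 44.5% either way. The calls over all genes were 1260 lower and 1292 higher with TMM, 709 and 2315 with library totals and 371 and 3224 on log2(TPM + 1). The members' median was 0.45 above that of all genes with TMM and with library totals, and 0.46 above it on log2(TPM + 1). Relative to the other 5, RPG1 rose by 0.35 ± 0.05 (adjusted p = 2.17e-05, edgeR quasi-likelihood test) and PRT1 by 0.19 ± 0.04 (adjusted p = 0.00136). NIP1, at -0.33 ± 0.07, and HCR1, at -0.32 ± 0.05, fell relative to the others (adjusted p = 0.000854 and 7.06e-05). TIF34, at 0.05 ± 0.04, and TIF35, at 0.07 ± 0.05, did not pass. Of 15 pairs, 11 changed unequally. The order of levels was TIF34, HCR1, TIF35, PRT1, RPG1 and NIP1, without overlap between neighbours. The 6 mRNAs together made up 0.138% ± 0.00372 of TPM and 3.08 ± 0.0929 TPM per 100 TPM of 40S ribosomal protein mRNA, against 0.996 ± 0.0228 at 39 °C without 5ph-IAA.

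The interaction subtracts the response to heat without 5ph-IAA from the response with it, and was above 0 for the 5 core genes, so that each fell less on heat shock with 5ph-IAA. With TMM it was called higher for 5 of 6 members, against 26% of all tested genes, and lower for none, against 22.9% (48.9% in either direction). RPG1 had 1.18 ± 0.06 on the log2 scale (adjusted p = 7.41e-09, edgeR quasi-likelihood test) and PRT1 0.98 ± 0.06 (adjusted p = 2.73e-08). TIF35 had 0.81 ± 0.07, TIF34 0.78 ± 0.06 and NIP1 0.67 ± 0.09, with adjusted p-values of at most 2.51e-05. HCR1, at 0.11 ± 0.07 (adjusted p = 0.206), did not pass with TMM, nor at -0.14 with library totals. On log2(TPM + 1) HCR1 was at -0.24 and was called lower (adjusted p = 0.0264, limma). The calls over all genes were 1315 lower and 1490 higher with TMM, 2550 and 908 with library totals and 2948 and 685 on log2(TPM + 1). The members' median lay 0.80 above that of all genes with TMM and with library totals and 0.79 above it on log2(TPM + 1). The values themselves were smaller under the other scalings, with a member median of 0.80 with TMM, 0.54 with library totals and 0.44 on log2(TPM + 1). On log2(TPM + 1) RPG1 had 0.81, PRT1 0.62, TIF35 0.45, TIF34 0.43 and NIP1 0.30, with adjusted p-values of at most 0.024 (limma). Among the heat shock genes the interaction was -0.84 ± 0.08 for SSA4 and -0.38 ± 0.06 for HSP42, both called lower, and 0.06 ± 0.09 for BTN2 (adjusted p = 0.623, edgeR quasi-likelihood test), and their part in the eIF3 interaction was not tested.

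Set against the other 5, RPG1 had an interaction of 0.51 ± 0.06 (adjusted p = 1.08e-05, edgeR quasi-likelihood test), PRT1 of 0.27 ± 0.06 (adjusted p = 0.00106) and HCR1 of -0.77 ± 0.07 (adjusted p = 5.27e-07). The relative fall of RPG1 and the relative rise of HCR1 on heat shock were thus smaller with 5ph-IAA. NIP1, at -0.10 ± 0.10, TIF34, at 0.03 ± 0.06, and TIF35, at 0.07 ± 0.07, did not pass that test. Of 15 pairs, 11 had an unequal interaction.

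The genes around eIF3 in translation were examined as 7 lists. Its partners in scanning, which are eIF1, eIF1A, eIF2, eIF5 and eIF5B, were all called lower on heat shock without 5ph-IAA, 7 of 7, with a median log2 fold change of -1.38. They ranged from -2.24 ± 0.05 for TIF5, which encodes the eIF5 that Nip1 binds, to -0.69 ± 0.05 for SUI1, which encodes eIF1. The guanine nucleotide exchange factor eIF2B was lower in 5 of 5 subunit genes (median -1.52), from -1.84 ± 0.05 for GCD1 to -1.29 ± 0.06 for GCD7. In the list of termination and recycling factors with CLU1, which encodes a protein that copurifies with eIF3, 4 of 4 were lower (median -1.96). RLI1, which encodes the recycling ATPase that works with Hcr1, changed by -2.57 ± 0.05 and CLU1 by -1.04 ± 0.05. Among all tested genes 39.7% were called lower on heat shock without 5ph-IAA and 42.5% higher.

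Of the 9 cap-binding and mRNA recruitment genes, 7 were called lower and 1 higher on heat shock without 5ph-IAA (median -1.36). TIF4631, which encodes the main eIF4G scaffold, changed by -2.84 ± 0.05, whereas TIF4632, its paralog, changed by -0.10 ± 0.05 and did not pass (adjusted p = 0.0835, edgeR quasi-likelihood test). Of 9 elongation factor genes, 8 were lower and 1 higher (median -1.29). YEF3, the fungal elongation factor 3, changed by -2.52 ± 0.04 and CAM1, which changed least, by -0.11 ± 0.05. The gene called higher was EFB1, at 0.38 ± 0.05, named here after its value was seen. Near-identical copies in these lists, such as TIF1 and TIF2, EFT1 and EFT2 or TEF1 and TEF2, can share reads and their values are uncertain. The 40S ribosomal protein genes were lower in 54 of 54 tested of 56 listed (median -1.22), from -3.35 ± 0.08 for RPS27A to -0.53 ± 0.05 for RPS21B. The small subunit processome, the assembly that builds the 40S precursor in the nucleolus, was lower in 27 of 27 (median -3.59), from -5.57 ± 0.07 for UTP13 to -1.51 ± 0.06 for SNU13. The eIF3 median of -1.74 lay between those of the ribosomal protein and the processome list.

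For 5ph-IAA at 30 °C, the 40S ribosomal protein genes were the list with the lowest median. It was -2.03, with 54 of 54 called lower, and -1.63 with library totals and -1.38 on log2(TPM + 1). The eIF3 median of -0.39 was close to that of the processome, -0.44 with 24 of 27 lower, and to those of scanning partners, -0.29 with 7 of 7 lower, elongation factors, -0.31 with 9 of 9, and cap binding, -0.30 with 7 of 9 lower and 1 higher. eIF2B had -0.26 with 4 of 5 lower and termination and recycling -0.27 with 4 of 4. With TMM, 28.1% of all tested genes were called lower in this comparison and 23.6% higher. On log2(TPM + 1) all of these list medians except that of the 40S ribosomal protein genes were above 0, from 0.21 for the processome to 0.39 for eIF2B. The median of all tested genes was 0.61 there.

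At 39 °C with 5ph-IAA against without, eIF2B was higher in 5 of 5 (median 0.34), the scanning partners in 4 of 7 (0.23) and the processome in 25 of 27 (1.09), while 51 of 54 40S ribosomal protein genes were lower and 1 higher (-1.33). Cap-binding genes were higher in 7 of 9 and lower in 1 (0.26), termination and recycling in 3 of 4 (0.39), and elongation factors in 5 of 9 and lower in 4 (0.36). Among all tested genes 22.5% were called higher in this comparison and 22% lower. All these list medians kept their sign with library totals and on log2(TPM + 1), where the median was 0.52 for the scanning partners and 0.28 for all tested genes. In cells with 5ph-IAA, heat shock gave lower calls for 7 of 7 scanning partners (-0.96), 5 of 5 eIF2B genes (-0.84), 4 of 4 termination and recycling genes (-1.34), 6 of 9 cap-binding genes with 1 higher (-0.62), 6 of 9 elongation factors with 3 higher (-0.53), 49 of 54 40S ribosomal protein genes (-0.55) and 27 of 27 of the processome (-1.96). Among all tested genes 38.3% were called lower on this heat shock and 38% higher. With library totals the medians were -0.94 for cap binding, -0.85 for elongation and -0.87 for 40S ribosomal proteins, against -0.32 for all tested genes. The interaction was higher for 7 of 7 scanning partners (0.49), 5 of 5 eIF2B genes (0.60), 4 of 4 termination and recycling genes (0.62), 7 of 9 cap-binding genes with 1 lower (0.50), 7 of 9 elongation factors (0.64), 52 of 54 40S ribosomal protein genes (0.68) and 26 of 27 of the processome (1.54). On log2(TPM + 1) the interaction medians were smaller, at 0.13 for scanning partners, 0.14 for cap binding, 0.23 for eIF2B, 0.26 for termination and recycling, 0.28 for elongation, 0.31 for 40S ribosomal proteins and 1.14 for the processome. The median interaction of all tested genes was -0.00 with TMM and -0.35 on log2(TPM + 1). With TMM, 26% of all tested genes were called higher for the interaction and 22.9% lower.

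**Figure D5:**
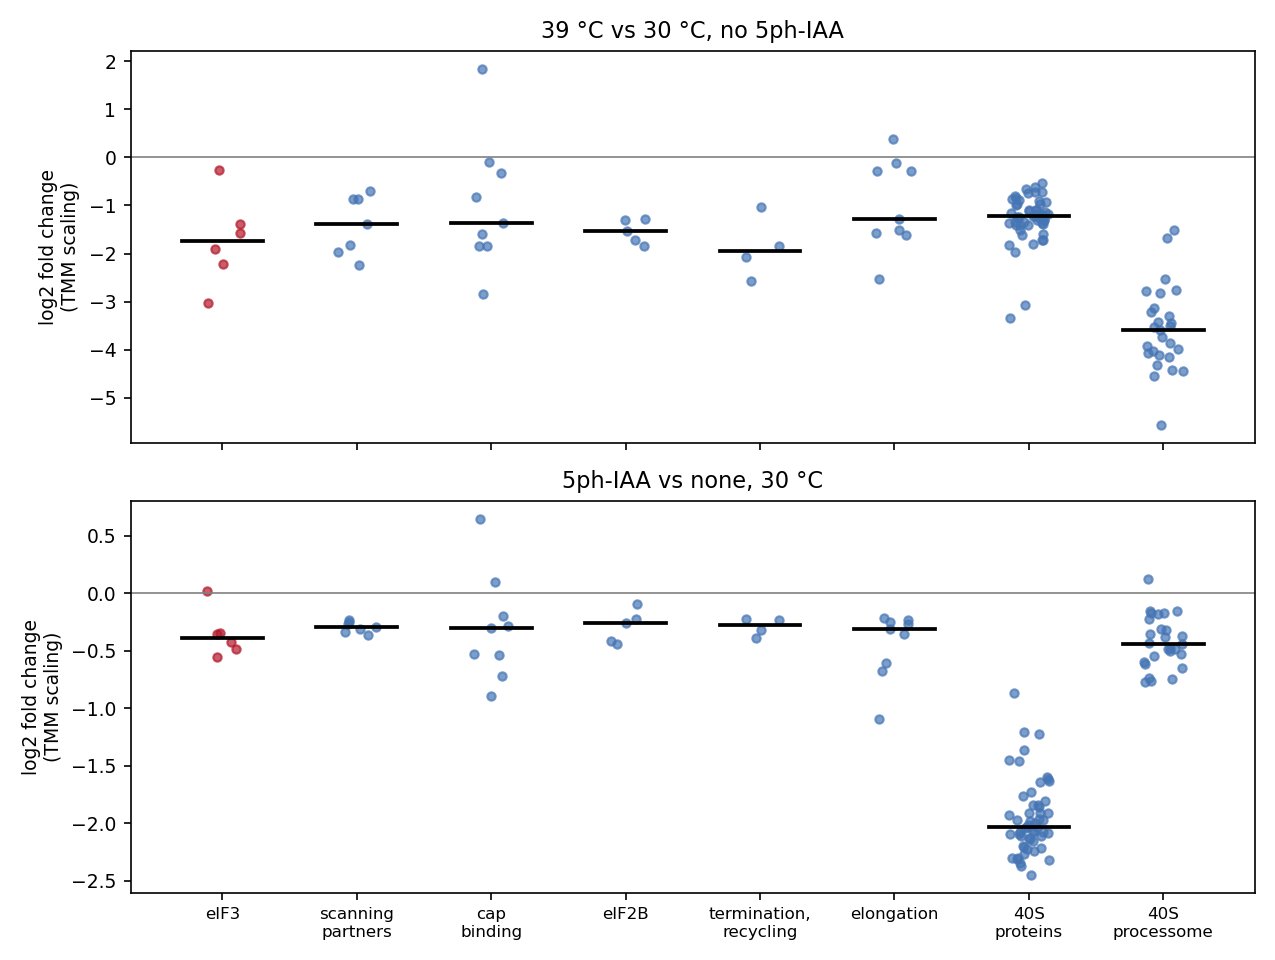
Log2 fold change (TMM scaling) of every tested gene in the eIF3 group (red) and 7 related lists (blue), with a black line at each list's median, for heat shock without 5ph-IAA (top) and 5ph-IAA at 30 °C (bottom). The eIF3 median is -1.74 in the top panel, between -1.22 for 40S ribosomal proteins and -3.59 for the processome. In the bottom panel it is -0.39 against -2.03 for 40S ribosomal proteins. On log2(TPM + 1), which is not drawn, the eIF3 median for 5ph-IAA at 30 °C is 0.26.

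The RRPE core shown above in 4 of 6 eIF3 genes was also present in the windows of 6 of 7 scanning partners, 4 of 4 termination and recycling genes with CLU1, 7 of 9 elongation factors, 4 of 9 cap-binding genes, 1 of 5 eIF2B genes, 21 of 27 processome genes and 3 of 56 40S ribosomal protein genes. PAC was present in 16 of 27 processome genes, in 1 of 6 eIF3 genes (TIF35) and in none of the other 6 lists. These matches describe sequence only.

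The genes whose profile across the 8 libraries was nearest to the mean of the 5 core subunits were EMP70, ALA1, LYS4, YHM2 and IKI3. Likeness was measured as the root mean square difference of centred log2(TPM + 1), which was 0.06 for EMP70 and ALA1 and 0.08 for IKI3. ALA1, which encodes alanyl-tRNA synthetase, had 152 ± 4.19, 43.6 ± 1.10, 169 ± 3.27 and 68.2 ± 1.35 TPM at 30 °C, 39 °C, 30 °C with 5ph-IAA and 39 °C with 5ph-IAA. LYS4 encodes a lysine biosynthesis enzyme and IKI3 a subunit of Elongator. Among the members, TIF35, at 0.05, and RPG1, at 0.09, were nearest to the core mean, then PRT1, at 0.25, TIF34, at 0.29, NIP1, at 0.55, and HCR1, at 0.71. The genes nearest to HCR1 were YNL035C, RRM3, MHR1, CUE1 and SEC11, at 0.04 for YNL035C and 0.05 for SEC11. RRM3 encodes a DNA helicase, MHR1 a mitochondrial protein, CUE1 a membrane anchor for a ubiquitin-conjugating enzyme and SEC11 a subunit of signal peptidase. Ranked by Pearson correlation over the same 8 libraries, none of the 5 nearest to the core mean (0 of 5) and 1 of 5 nearest to HCR1 (RRM3) stayed on the list.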

How the data were processed

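Poly-A RNA of 8 libraries was prepared with a kit that does not mark strand (TruSeq RNA v2, per the labels' protocols). The authors deposited estimated counts and TPM per coding target, for which the submitters' processing notes name kallisto. Its version, the transcript set and the build were not given in the sources used here. In the deposited estimated counts 6.93% to 7.52% of targets had values that were not whole. In the deposited TPM, counts were divided by an effective length, which is shorter than the target length. Levels of members relative to each other depend on that correction, which raises short targets most. The effective length of each of the 6 members was the same in all libraries, so changes in their log2 ratios do not depend on it. TPM is a share of the library, and no spike-in is mentioned, so all levels are relative.

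Estimated counts were rounded and tested with edgeR 4.0.16 (quasi-likelihood, TMM, filterByExpr) in R 4.3.3. All 8 libraries entered a single fit by group, with 4 residual degrees of freedom. The filter kept 5734 of 6034 targets, all 6 members included. P-values were 2-sided and adjusted by Benjamini-Hochberg over all tested genes, at a threshold of 0.05. The fit was tested on simulated data. Levels are given ± SD (n = 2) and fold changes ± SE. That SE is the absolute log2 fold change over the square root of the quasi-likelihood F statistic. It rests on a spread moderated across genes, not on 2 libraries of a gene alone.

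Alternatives were library totals, DESeq2 1.42.0 (and its size factors), no filter, limma 3.58.1 on log2(TPM + 1) and log2(TPM + 0.1), only the groups compared, a replicate block and each library left out. Scaling to the other 5 members, or to 1 of them, was added after seeing the data. The labels number biological replicates but name no separate cultures, so p-values cover only the spread between these libraries, which may be technical. Replicates differed by more than counting noise (chi-square per degree of freedom 3.28 to 4.32).

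The members and lists were chosen with earlier results of these data known. Named genes were the 6 members, the 5 genes nearest in profile to the core mean and to HCR1, and, per list, the genes with the largest and smallest change on heat shock without 5ph-IAA. Promoter windows came from RefSeq's R64 genome.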

Additional observations from a re-analysis of the deposited data

Results flagged for a closer look

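The heat shock change differed between cells with and without 5ph-IAA for 5 of the 6 eIF3 genes, by a test of the difference itself (the interaction term in edgeR's quasi-likelihood fit). The same test called 26% of all tested genes higher, 22.9% lower and 48.9% in either direction. The difference, with 5ph-IAA minus without, was 1.18 on the log2 scale for RPG1, 0.98 for PRT1, 0.81 for TIF35, 0.78 for TIF34 and 0.67 for NIP1. Each of these genes fell on heat shock in both kinds of cells and fell less with 5ph-IAA. The heat shock genes SSA4 and HSP42 had interactions of -0.84 ± 0.08 and -0.38 ± 0.06, and their part in the eIF3 values was not tested. All tested genes had a median interaction of -0.00 with TMM, -0.26 with library totals and -0.35 on log2(TPM + 1), and the 5 genes kept a positive interaction under each of these scalings, from 0.30 for NIP1 to 0.81 for RPG1 on log2(TPM + 1).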

How the results depend on the processing

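For 5ph-IAA at 30 °C, library totals gave 1 member lower (NIP1, -0.15) and 1 higher (HCR1, 0.42), against 503 and 3962 of 5734 tested genes. Both TPM settings gave 0 lower and 5 higher, against 276 and 4865 of the tested genes on log2(TPM + 1). TIF34 and TIF35 turned to 0.053 and 0.045 with library totals, and neither passed (adjusted p = 0.183 and 0.347, edgeR quasi-likelihood test). On log2(TPM + 1) RPG1 turned to 0.16, PRT1 to 0.23, NIP1 to 0.10, TIF34 to 0.30 and TIF35 to 0.30, and with a pseudocount of 0.1 the values were the same to 2 decimals. NIP1 did not pass there (adjusted p = 0.19 on log2(TPM + 1), limma), and HCR1, at 0.67, was the other member called higher. The interaction of HCR1 turned to -0.14 with library totals and to -0.24 with either pseudocount, where it made 1 member lower. On log2(TPM + 1) 2948 of 5734 tested genes had a lower call for the interaction. The cause of these shifts was not tested. With DESeq2, its size factors or no filter, the counts of members called were those of the main analysis in each of the 5 comparisons. The replicate block also left them, at 6 members lower for both heat shock comparisons, 5 lower for 5ph-IAA at 30 °C, and 5 higher for 5ph-IAA at 39 °C and for the interaction. Samples with the same number did not deviate together (r from -0.137 to 0.108), so the numbers were not taken as pairs. With only the groups compared, 4 members were higher for 5ph-IAA at 39 °C, and no such fit exists for the interaction. Over the libraries left out, 5 to 6 members were lower on heat shock with 5ph-IAA and 4 to 5 higher for 5ph-IAA at 39 °C, where HCR1 was the member lost, and the other counts stayed. Leaving out a library leaves a group with 1, which is then assumed to vary like the others. Relative to the other 5 members for 5ph-IAA at 30 °C, which passed no test, TIF34 ran from -0.0070 to 0.032 and TIF35 from -0.017 to 0.024 over the libraries left out. With 2 libraries a group, the exact permutation test of a ratio could not pass, so ratios were tested in edgeR's fits.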

Other observations

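Paralogs among the factors that work with eIF3 moved unequally on heat shock. The eIF4G genes TIF4631 and TIF4632 changed by -2.84 ± 0.05 and -0.10 ± 0.05 on the log2 scale without 5ph-IAA, and by -1.55 ± 0.05 and 0.07 ± 0.05 with it. DED1, which encodes a scanning helicase, changed by -0.33 ± 0.05 without 5ph-IAA and its paralog DBP1 by 1.85 ± 0.17, and with 5ph-IAA the values were -0.02 ± 0.05 and 1.11 ± 0.16. DED1 and DBP1 were chosen after their values were seen, and the differences between paralogs were not tested.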
